A study of Mus musculus with 47 samples.

Results

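Bcl11a and Bcl11b are the 2 mouse genes of the BCL11 family, and they were taken by symbol from a table of RNA-seq read counts that holds 38215 genes and all 16 groups of the study. Both encode zinc-finger transcription factors, also known as CTIP1 and CTIP2, that mostly repress their targets. They were chosen because the step from E8.5 to E10.5 was known to be large, so their levels at E8.5 are described here without a test. The other comparisons were tested over all genes.

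BCL11 proteins bind DNA through C2H2 zinc fingers and act with chromatin complexes, among them the nucleosome remodelling and deacetylase complex NuRD and the SWI/SNF-type BAF complex, of which they can be subunits. They were also found as partners of the NR2F (COUP-TF) nuclear receptors. Bcl11a is best known for the switch from embryonic and fetal to adult globins and for neuron and lymphocyte development, and Bcl11b for T cells, corticospinal neurons, skin and teeth. Bcl11b is also known to act in the facial skeleton and the cranial sutures. Cranial neural crest cells leave the neural folds and form most of the skeleton and connective tissue of the face.

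RNA was measured in 47 libraries of mouse cranial neural crest cells, dissected, freed with trypsin and sorted by fluorescence. Wild-type progenitors were taken at E8.5, and wild-type cells of 4 subpopulations at E10.5 and E11.5: the frontonasal process (FNP), the maxillary process (Mx), the mandibular process (Md), and the second pharyngeal arch (PA2). Other genotypes were sampled. Ezh2cKO, a conditional knockout of the Polycomb methyltransferase Ezh2, was taken in the 4 subpopulations at E10.5. HoxA2OE, an overexpression of Hoxa2, was taken in Md at E10.5, and Hoxa2TempMut, a temporal knockout of Hoxa2, was taken in PA2 at E11.5 with its own group labelled Control. Each group had 3 libraries except wild-type Mx at E10.5 with 2. The labels do not name the Cre line, the driver of the transgene, the sorted reporter, the genotype of Control or the number of embryos per library, and a p-value here covers the spread among such libraries, which may be technical.

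Library totals lay between 18.8 and 49.8 M (mega) counts, and mitochondrial genes took up to 45.9% of a total. Ezh2 averaged 363 ± 15.8 CPM in wild type at E10.5 (SD, n = 11) and 137 ± 14.8 in Ezh2cKO (n = 12), where CPM is counts per M counts of the library total after TMM scaling. Hoxa2, the patterning gene of the second arch, averaged 0.270 CPM in wild-type Md and 109.9 ± 15.9 in HoxA2OE (n = 3 each). It averaged 185 ± 9.49 in Hoxa2TempMut and 269 ± 0.794 in Control (n = 3 each; adjusted p = 0.503 by edgeR's quasi-likelihood test with Benjamini-Hochberg adjustment). Which exons the 2 knockouts remove is not given in the sources used here, so counts over the whole gene are a limited check. The HoxA2OE libraries stood apart: their TMM factors were 0.514, 0.775 and 0.765, below the other libraries, and mitochondrial genes took 34.3% ± 10.1 of their counts against 21.7% ± 2.06 in wild-type Md. In 4 groups 1 library stood apart from the other 2 by a chi-square per degree of freedom more than 5 times that between those 2: the first progenitor library, the first E10.5 FNP library, the third E11.5 FNP library and the first HoxA2OE library. Summed over 12 crest mesenchyme markers, such as Prrx1, Twist1 and Pdgfra, levels were 1439 CPM or more in every wild-type library after E8.5 and between 230 and 286 CPM in the 3 progenitor libraries.

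Bcl11a (ENSMUSG00000000861) lies on the plus strand of chromosome 11 at 24078056 to 24174123 on GRCm38, and Bcl11b (ENSMUSG00000048251) on the minus strand of chromosome 12 at 107910403 to 108003602. Their annotated exons cover 13.2 and 8.11 kb. No 50-base word, the length of a read, was shared between their annotated transcripts, so reads of these genes are distinguishable in sequence. The stretches before the RefSeq starts of both genes are shown because the 2 genes came on at the same step, and because their CpG counts differ. The sequences are RefSeq's for GRCm38.p6, cut where annotated exons begin, 5′ to 3′ on the gene's strand with CpG in capitals. Both members were matched in that table. The Bcl11a stretch is chr11:24080445-24080669 and the Bcl11b stretch chr12:108003603-108003664.
Bcl11a: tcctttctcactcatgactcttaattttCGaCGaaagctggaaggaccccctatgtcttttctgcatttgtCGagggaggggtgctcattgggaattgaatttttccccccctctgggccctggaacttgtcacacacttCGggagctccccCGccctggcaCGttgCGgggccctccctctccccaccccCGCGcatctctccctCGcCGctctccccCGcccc
Bcl11b: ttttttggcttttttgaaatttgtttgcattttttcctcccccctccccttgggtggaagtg
The Bcl11a stretch held 12 CpG in 225 bases and the Bcl11b stretch 0 in 62 bases. Over the full 250 bases before the RefSeq start, Bcl11a had 16 CpG and 62.0% GC, and Bcl11b 9 CpG and 44.8% GC. Relative to the CpG expected from their C and G content, the windows were close, at ratios of 0.733 for Bcl11a and 0.718 for Bcl11b. The medians of 32851 promoter windows of that length were 6 CpG and 52.4% GC, so Bcl11a lay above both medians and Bcl11b above the CpG median and below the GC median. The RefSeq start of Bcl11a lies 2639 bases inside the annotated gene and that of Bcl11b 188 bases, so both windows belong to internal starts. The printed Bcl11a stretch lies inside the gene, and the printed Bcl11b stretch lies before it. On either strand, the E-box CANNTG occurred 1 time in the Bcl11a window and 0 times in the Bcl11b window, against 66.2% of all windows with a match. The AP-2 motif GCCNNNGGC occurred 0 and 1 times (13.7% of windows), in the part of the Bcl11b window that is not printed. The letters TGATNNAT, TATAAA and AGATAA matched neither window.

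At E8.5 both genes were near the detection limit. Bcl11a had 14, 18 and 10 counts in the 3 progenitor libraries, or 0.312 ± 0.0924 CPM (SD, n = 3). Bcl11b had 0, 8 and 10 counts, or 0.127 ± 0.112 CPM, and the count of 0 allows a level of up to 0.0727 CPM in that library by the 3-count limit, which covers counting error only. The library with 0 counts of Bcl11b is the progenitor library that stood apart, and the other 2 held 0.173 and 0.2095 CPM. At E10.5 the 11 wild-type libraries ran from 189 to 329 CPM for Bcl11a with a median of 301, and from 43.7 to 91.1 CPM for Bcl11b with a median of 69.9. The means were 863-fold and 536-fold those at E8.5. At E11.5 the 12 wild-type libraries averaged 356 ± 126 CPM for Bcl11a and 145 ± 48.6 for Bcl11b. Every one of the 44 libraries after E8.5 held at least 154 CPM of Bcl11a and 43.7 CPM of Bcl11b, so the gap to the progenitors is wider than any gap among later groups, as the plot of levels by library shows. The progenitor libraries also held more of other cell types' markers: 10 neural progenitor markers summed to 605 to 783 CPM there and to 22.01 to 62.5 CPM in the E10.5 wild-type libraries, and 12 epithelium markers to 164 to 181 and to 2.64 to 16.4 CPM. Their part in the result was not tested. In sorted bulk samples, fewer expressing cells and less RNA per cell cannot be told apart.

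**Figure D1:**
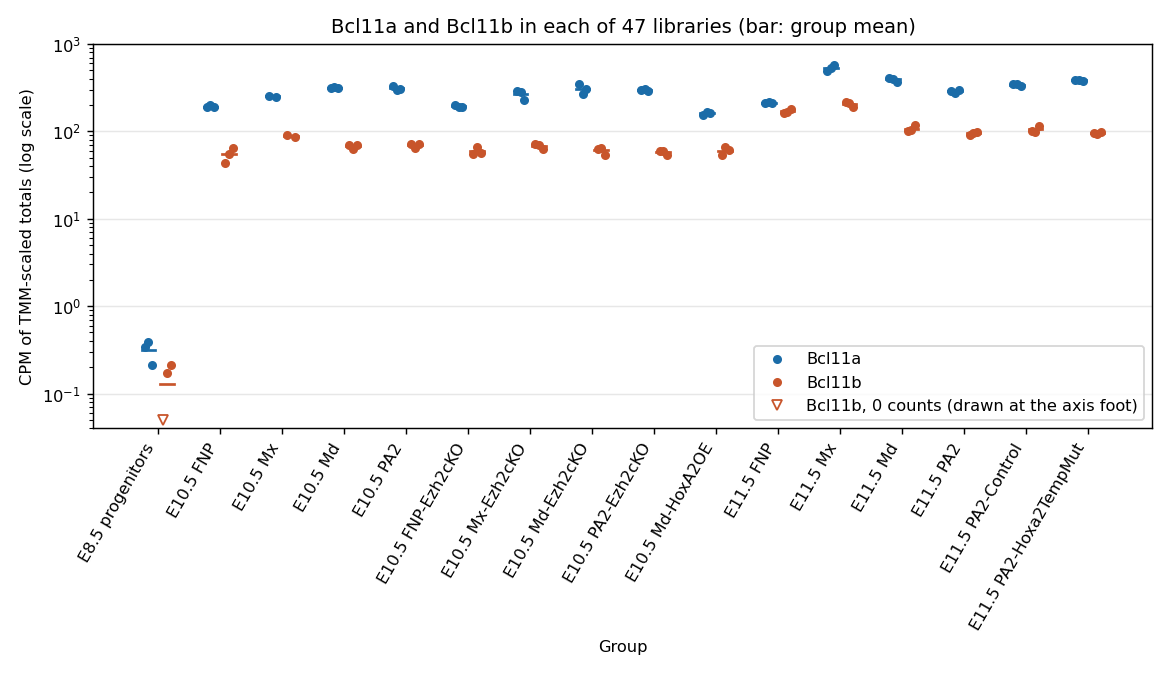
Levels of Bcl11a and Bcl11b (CPM of TMM-scaled totals, log scale) in each library of the 16 groups, with a bar at the group mean. The E8.5 progenitors lie below 0.4 CPM for both genes, and all later libraries lie above 40 CPM.

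The order of the groups differed between the genes. For Bcl11a the mean rose from HoxA2OE Md (160 CPM) over the 3 FNP groups (193 to 214 CPM) and the Mx, Md and PA2 groups of E10.5 to Mx at E11.5 (531 ± 42.8 CPM, SD, n = 3). Ranges of neighbours in that order overlapped in 8 of 15 pairs. From wild-type Mx to wild-type Md of E10.5, with the Ezh2cKO Mx, Md and PA2 groups and PA2 of both stages between them, each group overlapped the next. For Bcl11b the mean ran from 54.5 ± 10.3 CPM in FNP at E10.5 to 207 ± 15.9 in Mx at E11.5, with all E10.5 groups of every genotype at or below 88.6 CPM and all E11.5 groups at or above 95.6 CPM. Here 9 of 15 neighbouring pairs overlapped, among them all the pairs from FNP up to PA2 within E10.5.

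At E10.5 the wild-type subpopulations differed in both genes, with the lowest mean in the frontonasal process. Bcl11a was 189, 200 and 189 CPM in the 3 FNP libraries, 256 and 246 in Mx, 311, 322 and 316 in Md, and 329, 301 and 309 in PA2. FNP lay below Mx and Mx below both other groups without overlap, while Md and PA2 overlapped. Bcl11b was 43.7, 55.4 and 64.3 CPM in FNP, 91.1 and 86.0 in Mx, 70.6, 62.2 and 69.9 in Md, and 71.8, 63.9 and 71.9 in PA2. For this gene Mx was highest, and the FNP range overlapped those of Md and PA2. An F test of any difference gave adjusted p = 1.84e-09 for Bcl11a and 9.43e-04 for Bcl11b (edgeR's quasi-likelihood test with Benjamini-Hochberg adjustment, as for all tests below), where 27% of the 20560 genes tested passed at 0.05. Without the Mx groups, Bcl11b no longer passed (adjusted p = 0.0598).

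FNP against the mean of the other 3 differed by a log2 fold change of -0.60 ± 0.07 (SE) for Bcl11a (adjusted p = 5.26e-09) and -0.45 ± 0.11 for Bcl11b (adjusted p = 9.87e-04), in a contrast that 27.6% of genes passed. Without the first FNP library, the one that stood apart and the lowest in Bcl11b, the Bcl11b difference was -0.32 (adjusted p = 0.0369). FNP also differed in other measures: mitochondrial genes took 30.2% ± 2.92 of its counts against means of 21.7% to 22.9% in the other 3, erythroid markers summed to 25.8 to 52.7 CPM against 182 to 439, and early neural crest markers to 944 to 1074 CPM against 268 to 529. Their part in the result was not tested. Mx was lower than Md in Bcl11a (-0.34 ± 0.09, adjusted p = 0.0133), where 6.61% of genes passed. That call was lost without either of the 2 Mx libraries (adjusted p = 0.0512 without the first and 0.132 without the second). For Bcl11b the same difference was 0.39 ± 0.14 with adjusted p = 0.0873. The signs of the Mx to Md difference were thus opposite for the 2 genes, and that difference between genes was not tested. PA2 and Md differed by -0.02 ± 0.08 for Bcl11a and 0.03 ± 0.12 for Bcl11b, with 95% intervals of -0.18 to 0.15 and -0.22 to 0.29, in a contrast that 4.67% of genes passed.

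The wild-type Mx libraries of E10.5 also differed in neuron content. The summed level of 13 neuron markers, which include Tubb3, Stmn2 and Isl1, was 334 and 384 CPM in Mx and between 21.6 and 29.8 CPM in the FNP, Md and PA2 libraries, and Schwann and glia markers were also higher there. Both BCL11 genes are known from neurons in other settings. The part of these cells in the Mx values was not tested. In Ezh2cKO Mx the neuron sum was 244 to 643 CPM, a range that holds both wild-type values, and Schwann and glia markers summed to 39.8 to 67.0 CPM against 91.2 and 111.4 in wild-type Mx. At E11.5 the neuron sum was 145 to 179 CPM in PA2 and 58.6 to 108 CPM in the other 3 wild-type groups. Lymphoid markers, the other lineage in which both genes are known, summed to 16.4 CPM or less as a mean in every group, with Il7r at 0 in 14 of the 16 groups.

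At E11.5 the 2 genes diverged in the frontonasal process. Bcl11a was 211, 217 and 212 CPM in FNP, 488, 531 and 574 in Mx, 407, 402 and 371 in Md, and 289, 277 and 296 in PA2, so the 4 groups did not overlap. Bcl11b was 164, 167 and 180 CPM in FNP, 219, 213 and 189 in Mx, 101, 103 and 118 in Md, and 91.4, 95.9 and 99.4 in PA2. Here too no groups overlapped, but FNP stood above Md and PA2. The F tests gave adjusted p = 1.66e-16 for Bcl11a and 2.33e-10 for Bcl11b, with 29.4% of genes passing.

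FNP against the other 3 was -0.87 ± 0.07 for Bcl11a (adjusted p = 1.77e-13) and 0.41 ± 0.10 for Bcl11b (adjusted p = 0.00141), with 24.6% of genes passing. Without the Mx groups, a setting chosen after seeing the data, the Bcl11b difference was 0.75 (adjusted p = 1.71e-07), and without the third FNP library, which stood apart, it was 0.35 (adjusted p = 0.0291). Against the mean of the other 3, Bcl11a was thus lower and Bcl11b higher in FNP, though Bcl11b was higher still in Mx. The Bcl11b contrast had the opposite sign a day earlier. Mx was higher than Md in both genes, by 0.43 ± 0.08 for Bcl11a (adjusted p = 1.12e-04) and 0.95 ± 0.12 for Bcl11b (adjusted p = 1.32e-07), in a contrast that 9.18% of genes passed. PA2 was lower than Md in Bcl11a (-0.45 ± 0.08, adjusted p = 7.69e-05; 7.87% of genes passed). The PA2 to Md difference of Bcl11b was -0.17 ± 0.12 with adjusted p = 0.522 and a 95% interval of -0.42 to 0.08.

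From E10.5 to E11.5 Bcl11b rose in all 4 wild-type subpopulations and Bcl11a in Mx and Md. Bcl11b rose by 1.64 ± 0.13 on the log2 scale in FNP (adjusted p = 7.31e-14), 1.23 ± 0.14 in Mx (adjusted p = 3.63e-09), 0.67 ± 0.12 in Md (adjusted p = 2.83e-05) and 0.47 ± 0.12 in PA2 (adjusted p = 0.00236). In fold, FNP gained 3.13 times and PA2 1.38 times. Bcl11a rose by 1.08 ± 0.09 in Mx (adjusted p = 2.20e-12) and 0.31 ± 0.08 in Md (adjusted p = 0.0018). Its differences in FNP (0.15 ± 0.08, adjusted p = 0.134) and PA2 (-0.12 ± 0.08, adjusted p = 0.232) did not pass, with 95% intervals of -0.02 to 0.31 and -0.29 to 0.04. Changes over this day were common: 42.6% of genes passed in FNP, 39.4% in PA2, and 38.3% in Mx as in Md.

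The size of the change differed between subpopulations for both genes, with adjusted p = 4.03e-09 for Bcl11a and 3.88e-06 for Bcl11b in a test that 15.6% of genes passed. Averaged over the 4, the change was 0.36 ± 0.04 for Bcl11a (adjusted p = 1.11e-09) and 1.00 ± 0.06 for Bcl11b (adjusted p = 4.69e-17), where 63.8% of genes passed. For Bcl11a without the Mx groups the average was 0.11 (adjusted p = 0.034), and the test of a difference between subpopulations gave adjusted p = 0.0193. The plot of levels by stage shows both patterns. Of 12 crest mesenchyme markers, 8 were also higher over this day and 2 lower, averaged over subpopulations. Of 11 epithelium markers tested 7 were higher, at sums of at most 22.2 CPM in any E11.5 wild-type library. On that average 33.7% of all genes tested were higher and 30.1% lower. The neuron sum went from a mean of 21.8 to 74.3 CPM in FNP, 28.9 to 61.96 in Md and 26.2 to 167 in PA2, and from 359 to 99.2 in Mx. Mitochondrial genes took a smaller share at E11.5, with group means of 16.4% to 17.6% against 21.7% to 30.2% at E10.5. Their part in the result was not tested. The stages were separate samples, and a batch of libraries that follows stage cannot be told apart from it.

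**Figure D2:**
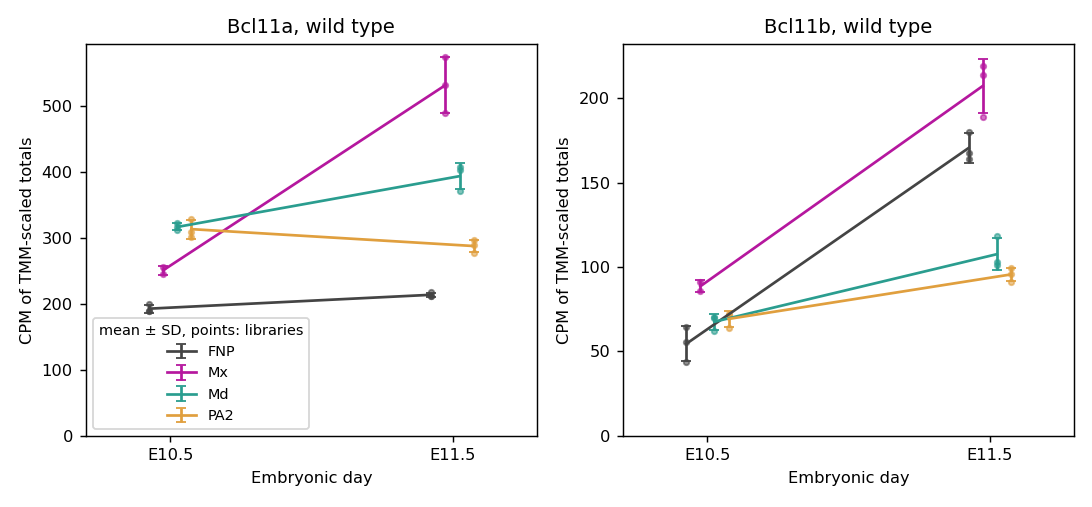
Levels of Bcl11a (left) and Bcl11b (right) in the wild-type subpopulations at E10.5 and E11.5, in CPM of TMM-scaled totals; points are libraries, lines join means and bars are SD. Bcl11a separates upward in Mx, and Bcl11b rises most in FNP, from 54.5 to 170 CPM, and in Mx, from 88.6 to 207 CPM.

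The balance between the 2 genes followed from these changes. Per kb of exon, Bcl11a exceeded Bcl11b by a ratio of 2.23 ± 0.43 in FNP (SD, n = 3), 1.74 ± 0.02 in Mx (n = 2), 2.89 ± 0.26 in Md and 2.79 ± 0.13 in PA2 (n = 3 each) at E10.5. At E11.5 the ratio was lowest in FNP, at 0.773 ± 0.042, and reached 1.59 ± 0.25 in Mx, 1.85 ± 0.09 in PA2 and 2.27 ± 0.30 in Md (n = 3 each). The 3 FNP libraries of E11.5, at 0.725 to 0.799, were the only ones of the 44 after E8.5 in which Bcl11b was the higher of the 2 per kb. In CPM, not divided by length, Bcl11a was the higher there, at 211 to 217 against 164 to 180. The lengths cover all annotated exons, and which transcripts these cells made was not tested. Ezh2cKO Md and PA2 stood at the other end with mean ratios of 3.17 each.

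**Figure D3:**
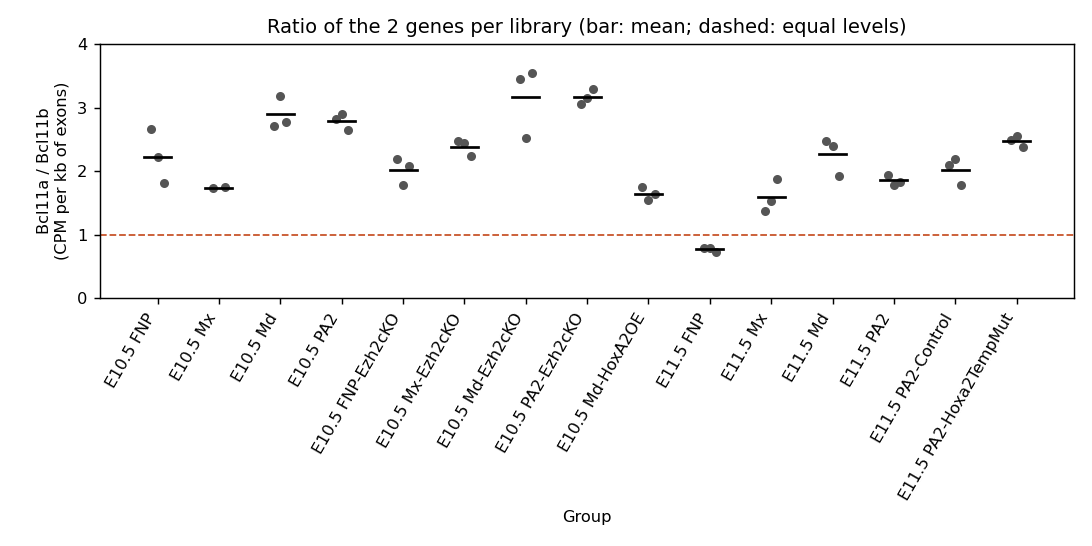
Ratio of Bcl11a to Bcl11b per library, both in CPM per kb of annotated exons, for the 15 groups after E8.5. Bars are group means, and the dashed line marks equal CPM per kb. FNP at E11.5 is the group below the line, at 0.773.

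Loss of Ezh2 left both genes on. Ezh2 is the catalytic subunit of Polycomb repressive complex 2 (PRC2), which methylates histone H3 on lysine 27 at silent genes. Bcl11a was 191 to 199 CPM in Ezh2cKO FNP, 229 to 288 in Mx, 268 to 352 in Md and 290 to 303 in PA2, ranges that overlap those of wild type in FNP, Mx, Md and PA2. The difference averaged over subpopulations was -0.004 ± 0.04 (adjusted p = 0.962), with a 95% interval of -0.09 to 0.08, and its sign turned under other scalings. For Bcl11b the 3 libraries of Ezh2cKO PA2, at 59.5, 59.0 and 54.2 CPM, lay below the 3 of wild type, and those of Ezh2cKO Mx, at 71.9, 70.3 and 63.3 CPM, below the 2 of wild type. FNP and Md overlapped between genotypes.

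Averaged over subpopulations, Bcl11b was lower in Ezh2cKO by -0.17 ± 0.06 (adjusted p = 0.0435), where 30.8% of genes passed. That call did not hold under several settings, among them leaving out the Mx groups (-0.10, adjusted p = 0.372) and RLE scaling (-0.15, adjusted p = 0.0741). In the same groups mitochondrial genes took 27.0% to 28.8% of counts as means in Ezh2cKO Mx, Md and PA2 against 21.7% to 22.9% in wild type. The neuron sum was 56.0 CPM in FNP, 51.2 in Md and 57.3 in PA2 of Ezh2cKO, against 21.8, 28.9 and 26.2 CPM in wild type. Their part in the result was not tested. By subpopulation Bcl11b differed by 0.13 ± 0.12 in FNP (adjusted p = 0.659; 6.8% of genes passed), -0.37 ± 0.14 in Mx (adjusted p = 0.0763; 10.3% passed), -0.16 ± 0.12 in Md (adjusted p = 0.567; 8.87% passed) and -0.27 ± 0.12 in PA2 (adjusted p = 0.199; 9.17% passed). The Mx difference passed when only the groups compared were fitted (adjusted p = 0.023) and in DESeq2 (adjusted p = 0.031), and the PA2 difference when only the groups compared were fitted (adjusted p = 0.0316). The effect was not shown to differ between subpopulations for either gene (adjusted p = 1 for Bcl11a and 0.611 for Bcl11b; 1.63% of genes passed). All 16 posterior Hox genes tested, classic Polycomb targets, rose in Ezh2cKO, where 16.1% of all genes were higher averaged over subpopulations. Their median log2 fold change of 8.18 rests on near-zero wild-type levels and is no bound. Ezh2cKO was sampled only at E10.5, when both members were on in wild type, so an effect on their low E8.5 levels was not tested.

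In Md cells that overexpress Hoxa2, Bcl11a was lower and Bcl11b stayed within the range of the other E10.5 groups. Bcl11a was 154, 165 and 163 CPM in HoxA2OE, below every wild-type Md library (311 CPM or more). The log2 fold change was -0.98 ± 0.08 (adjusted p = 1.85e-12), where 54.8% of all genes passed and the median over all genes was -0.07. Bcl11b was 54.3, 65.9 and 60.9 CPM, overlapping Md at 62.2 to 70.6, with -0.16 ± 0.12 (adjusted p = 0.276) and a 95% interval of -0.41 to 0.09. On plain library totals, without TMM scaling, the HoxA2OE means were 110.4 CPM for Bcl11a and 41.9 for Bcl11b against 329 and 70.2 in Md, so the scaling sets how far Bcl11b lies from Md. Without each HoxA2OE or Md library in turn the Bcl11a difference stayed between -0.99 and -0.90. Erythroid markers summed to 11.2 to 13.8 CPM in HoxA2OE and 227 to 292 in Md, and neuron markers to 27.4 and 28.9 CPM as means; their part in the result was not tested.

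Among the PA2 groups of E11.5, Bcl11a was highest in Hoxa2TempMut and lowest in wild type. It was 389, 386 and 382 CPM in Hoxa2TempMut, 348, 351 and 332 in Control, and 277 to 296 in wild type. The 3 groups did not overlap, and how many of all genes separate in this way was not counted. Hoxa2TempMut was compared with Control, and its difference from wild type was not tested. The log2 fold change between Hoxa2TempMut and Control was 0.17 ± 0.08 with adjusted p = 0.804, in a comparison that 0.623% of genes passed, and its unadjusted 95% interval was 0.002 to 0.33. Bcl11b was 96.1, 92.98 and 98.5 CPM in Hoxa2TempMut and 102, 98.7 and 115 in Control, a difference of -0.14 ± 0.12 (adjusted p = 1). Control was higher than wild-type PA2 in Bcl11a by 0.26 ± 0.08 (adjusted p = 0.0169; 22.1% of genes passed), a call lost without the second wild-type library (adjusted p = 0.0725) or without the first or the second Control library (0.0506 and 0.0591). For Bcl11b that difference was 0.14 ± 0.12 (adjusted p = 0.45). The neuron sum was 145 to 179 CPM in wild-type PA2, 108 to 132 in Control and 66.6 to 71.5 in Hoxa2TempMut. Mitochondrial genes took 17.0%, 19.9% and 21.6% of counts as means in the same order. Their part in the result was not tested. The forest plot sets the log2 fold changes of all comparisons side by side.

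**Figure D4:**
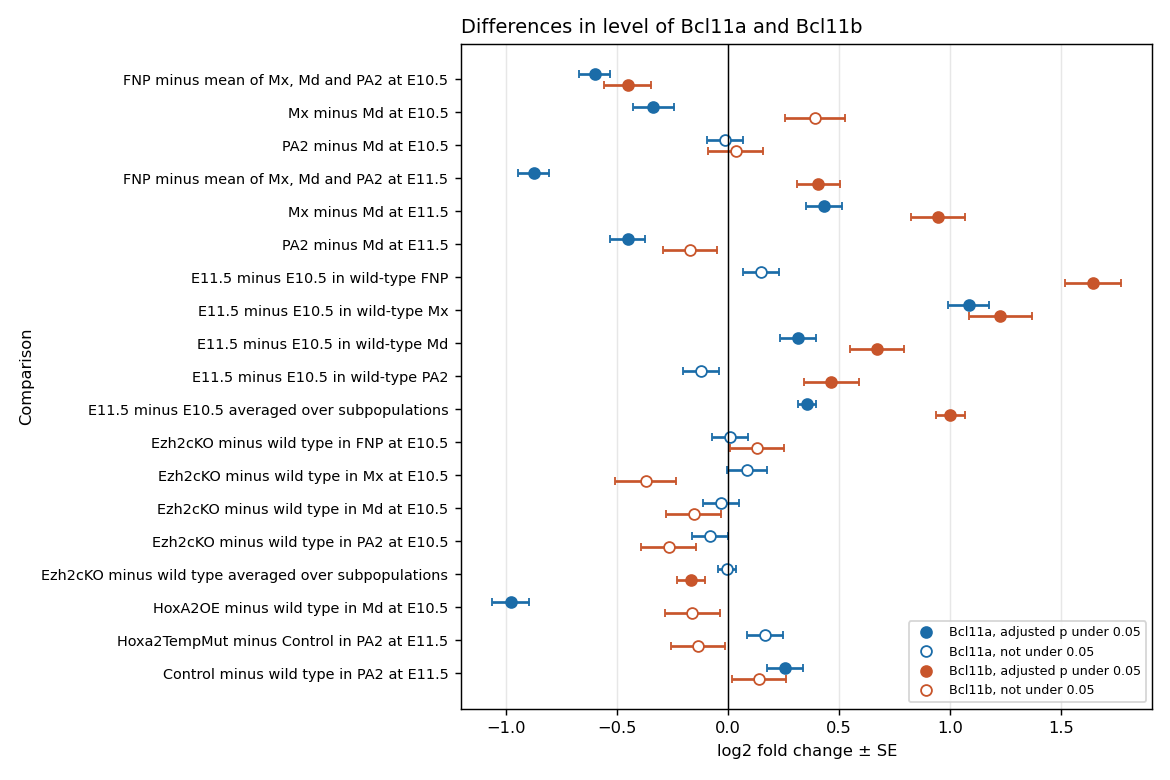
Log2 fold change ± SE of Bcl11a (blue) and Bcl11b (orange) in each comparison, with filled points where the adjusted p was under 0.05 over all genes tested. Points right of 0 are higher in the first-named group; Bcl11a lies at -0.98 in HoxA2OE and Bcl11b at 1.64 in FNP between the stages.

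The antisense genes Gm12064 and 4930538E20Rik overlap Bcl11a. The libraries were unstranded, so reads from Bcl11a and from these genes cannot be told apart where they overlap. Gm12064 had 0 counts in all 3 libraries of E8.5 and 11.3 CPM on average in wild type at E10.5, and 4930538E20Rik went from 0.0223 to 10.3 CPM. At E11.5, 4930538E20Rik was 8.94 CPM in FNP and 22.1 in Mx, the lowest and highest wild-type groups of that stage, as for Bcl11a. In HoxA2OE Gm12064 fell by 2.46 ± 0.18 on the log2 scale against Md (adjusted p = 2.92e-13), from 12.2 to 2.174 CPM, while 4930538E20Rik fell by 0.40 ± 0.10 (adjusted p = 7.56e-04). Both are at or below 22.1 CPM as group means, a small level beside that of Bcl11a. No gene overlaps Bcl11b in the table. For Bcl11a the nearest protein-coding genes on either side were Papolg, 183 kb away, and Fancl, 2212 kb away. For Bcl11b they were Setd3, 103 kb away, and Vrk1, 1833 kb away. Symbols starting with Gm or ending in Rik were left out of this search. The 4 genes found stood between 29.2 and 85.7 CPM at E8.5 and between 28.4 and 80.8 CPM in wild type at E10.5. All 4 were thus on at E8.5.

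**Figure D5:**
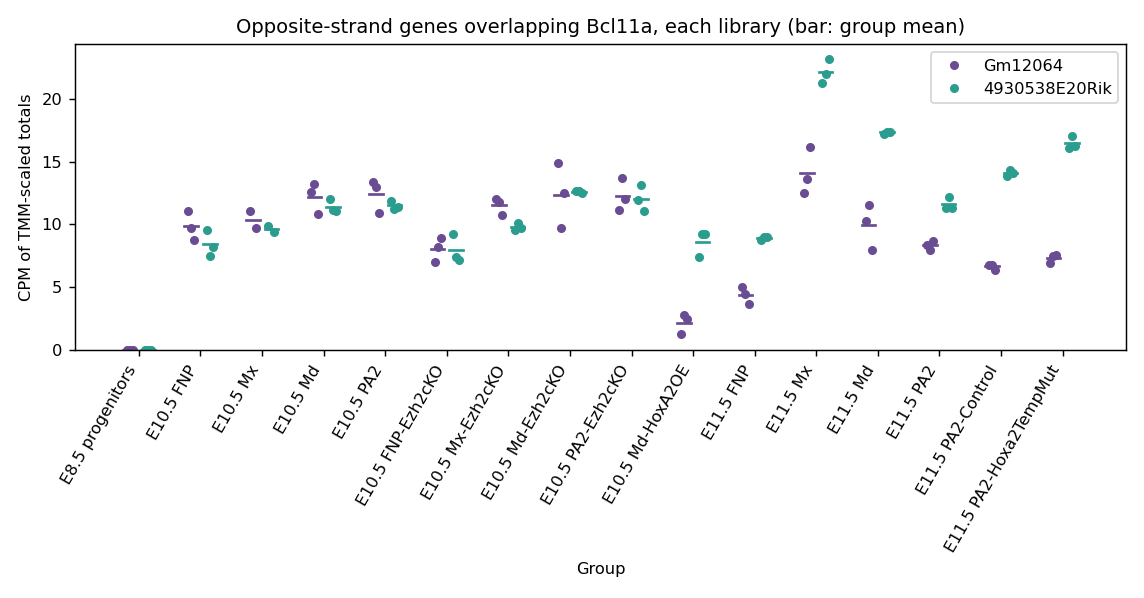
Levels (CPM of TMM-scaled totals) of the 2 antisense genes that overlap Bcl11a, in each library with a bar at the group mean. Both are near 0 at E8.5, Gm12064 is lowest after E8.5 in HoxA2OE (2.174 CPM), and 4930538E20Rik is highest in Mx at E11.5 (22.1 CPM).

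Partner genes changed in both directions between E8.5 and E10.5. NR2F partners are nuclear receptors, and 1 of 3 was higher and 1 lower at E10.5 than at E8.5, a step at which 68.4% of all genes passed (32.1% higher and 36.3% lower). Of 27 BAF subunits tested, 14 were higher and 1 lower at that step, with Dpf1 (1.64 ± 0.19), Dpf3 (1.69 ± 0.37) and Smarcd3 (1.36 ± 0.11), subunits known from differentiating neurons and muscle, among those of largest fold. Of 14 NuRD subunits, 7 were higher and 1 lower, led by the remodeller Chd3 (1.85 ± 0.13). The 2 members were chosen for a large change at this step, so the sizes of these changes are not set against theirs. From E10.5 to E11.5, where 33.7% of all genes were higher and 30.1% lower, 7 BAF subunits were higher and 10 lower, 3 NuRD subunits higher and 6 lower, and of 12 other corepressors 4 higher and 5 lower. The medians were -0.03, -0.01 and -0.05 against 0.03 over all genes. The ATPase gene Smarca2 (1.24 ± 0.07, adjusted p = 3.05e-18), Smarcd3 (1.08 ± 0.06, adjusted p = 7.03e-18) and Chd3 (1.09 ± 0.07, adjusted p = 2.69e-16) rose, while Smarcd1 (-0.65 ± 0.08, adjusted p = 4.93e-09) and Gatad2a (-0.79 ± 0.06, adjusted p = 1.49e-14) fell.

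All 3 NR2F genes were lower at E11.5 on average over subpopulations, where 30.1% of all genes were lower. That average covers changes in both directions. Nr2f1 fell in FNP by 1.10 ± 0.13 on the log2 scale (adjusted p = 3.31e-09) and rose in Md by 0.48 ± 0.12 (adjusted p = 0.00183). Nr2f2 fell in FNP by 1.32 ± 0.12 (adjusted p = 4.88e-12) and rose in Md by 0.55 ± 0.11 (adjusted p = 1.70e-04). Nr2f1, the only 1 of the 3 given for this contrast, was also lower in FNP than in the arches at both stages. It differed by -0.82 ± 0.11 at E10.5 (adjusted p = 8.22e-08) and -2.01 ± 0.11 at E11.5 (adjusted p = 6.67e-18). Bcl11a had the same sign at both stages and Bcl11b at E10.5. In HoxA2OE Nr2f1 rose by 1.60 ± 0.13 (adjusted p = 4.61e-13), where Bcl11a was lower. In the same comparison 10 BAF subunits were higher and 9 lower, 3 NuRD subunits higher and 3 lower, and 5 corepressors higher and 2 lower, where 27.1% of all genes were higher and 27.8% lower. In Ezh2cKO averaged over subpopulations (16.1% of all genes higher and 14.7% lower) 3 BAF subunits were higher and 9 lower, 2 NuRD subunits higher and 8 lower, and 6 of 12 corepressors lower. The differences were small, with medians of -0.07, -0.17 and -0.12 against -0.02 over all genes. Of 11 PRC2 components, 1 was higher, Phf19 (1.45 ± 0.17, adjusted p = 8.24e-09), and 7 lower, Ezh2 itself included.

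As candidates, 13 genes known as BCL11 targets or as changed by BCL11 loss in other tissues were followed. From E10.5 to E11.5, 6 were higher and 4 lower, where 33.7% of all genes were higher and 30.1% lower. Their median was 0.15 against 0.03 over all genes. The bone regulator Runx2 (2.43 ± 0.09, adjusted p = 4.55e-24) and the cell-cycle inhibitor Cdkn1c (1.55 ± 0.08, adjusted p = 6.48e-20) rose, and the transcription factor Zbtb16 (-2.25 ± 0.09, adjusted p = 2.79e-24) and the embryonic globin Hbb-bh1 (-3.31 ± 0.23, adjusted p = 3.93e-16) fell. Hbb-bh1 moved with the erythroid marker list, of which it is a member: 7 of 9 markers tested were lower over this day. In HoxA2OE, 3 candidates were higher and 7 lower, against 27.1% and 27.8% of all genes. Their median was -0.53 against -0.07 over all genes. The candidates include the embryonic globins Hbb-y and Hbb-bh1, and erythroid markers summed to 11.2 to 13.8 CPM in HoxA2OE and 227 to 292 in Md. The part of red cells in these counts was not tested. In HoxA2OE Runx2 (-1.27 ± 0.18, adjusted p = 2.36e-07) and Cdkn1c (-1.64 ± 0.15, adjusted p = 3.20e-11) were lower and Id2 (1.71 ± 0.16, adjusted p = 3.01e-11) was higher. In Ezh2cKO, 4 were higher and 5 lower, against 16.1% and 14.7% of all genes, with Runx2 at 0.71 ± 0.09 (adjusted p = 3.30e-08) and the axon guidance ligand Sema3c at -0.63 ± 0.09 (adjusted p = 5.15e-07).

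Across group means, the genes most like each member were found among 11394 genes by Pearson's r of log2(mean CPM + 0.1), as a description, since groups share stages and genotypes. Over all 16 groups the 2 members resembled each other with r = 0.976, rank 4 for Bcl11a and rank 3 for Bcl11b, a value set mainly by the low E8.5 group. Nearest to Bcl11a were Pmepa1 (0.983), Sgcd (0.980) and Dnm1 (0.979), and nearest to Bcl11b were Oxct1 (0.985) and Dchs1 (0.979). Over the 15 groups after E8.5 the r between the members was 0.531, at rank 1093 and 1949. There Camk1 (0.894), Rab11fip3 (0.893), Gabbr1 (0.865), Tmem149 (0.853) and Zfp653 (0.852) were nearest to Bcl11a. Nearest to Bcl11b were Apcdd1 (0.942), a Wnt inhibitor at the cell surface, Lphn3 (0.920), BC025920 (0.920), Mob3a (0.919) and Prss12 (0.916). The 2 sets of 5 held no gene in common, but sets of 5 from 11394 genes would seldom share 1, so nothing is drawn from that.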

How the data were processed

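The authors deposited raw read counts per gene for 47 libraries, per the file headers, with gene coordinates and, as another deposited value, the exonic length in bases. Libraries were unstranded ScriptSeq v2, sequenced as single 50-base reads, per the labels' protocols; bcl2fastq 2.17 and GRCm38 are named in the submitters' processing notes. Aligner, counter and gene annotation were not given in the sources used here. Of its columns, 22 names occurred 2 times with identical values and were used once. Totals of 18.8 to 49.8 M counts limit precision only at E8.5 for these genes.

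Counts were fitted in edgeR 4.0.16 (R 4.3.3): filterByExpr by group (minimum count 10, minimum total 15; 20560 genes), TMM, 16 group means over all 47 libraries, 31 residual degrees of freedom, quasi-likelihood F tests and Benjamini-Hochberg adjustment over all genes, called under 0.05. The SE is the log2 fold change over the root of F, and 95% intervals are unadjusted. The test was checked on simulated data. Alternatives were DESeq2 1.42.0, RLE, no filter, only the groups compared, no mitochondrial genes, a replicate block, leaving out each library and, chosen after seeing the data, no Mx groups. The replicate numbers come from the labels, which do not say that a number is shared: deviations of same-numbered libraries correlated over 0.1 throughout in 4 of 23 pairs of groups, so the main model has no block. No 2 libraries of a group agreed within sampling noise (chi-square per degree of freedom 3.53 or more over genes with at least 20 counts). Members and gene lists were chosen with earlier results of these data known. Named genes are the members, Ezh2 and Hoxa2, the 5 genes most like each member, overlapping and nearest protein-coding genes, and up to 4 called genes per list. RefSeq promoter windows were read for GRCm38.p6.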

Additional observations from a re-analysis of the deposited data

Results flagged for a closer look

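The change from E10.5 to E11.5 differed between the 4 wild-type subpopulations for Bcl11a (adjusted p = 4.03e-09, edgeR's quasi-likelihood F test with Benjamini-Hochberg adjustment). It was highest in Mx, at 1.08 ± 0.09 on the log2 scale, and lowest in PA2, at -0.12 ± 0.08. The change of Bcl11b over the same day also differed between subpopulations (adjusted p = 3.88e-06), with 1.64 ± 0.13 in FNP and 0.47 ± 0.12 in PA2. Of all genes tested, 15.6% passed this test. Without the Mx groups the test still passed for Bcl11a, with adjusted p = 0.0193. Dixon's test for single outlying libraries was not run, since no group held more than 3 libraries.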

How the results depend on the processing

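Of 46 results on the members (2 genes in 23 tests), 25 passed the threshold. Of these, 21 passed under each left-out library and each of the 7 alternatives that was run for them. The setting without the Mx groups was run only for tests that span all 4 subpopulations. It took Mx out of the comparison and kept the Mx libraries in the fit. The other 4 called results follow. The Bcl11b difference averaged over subpopulations in Ezh2cKO was -0.15 with RLE scaling, -0.14 with no filter, -0.13 with only the groups compared and -0.10 without the Mx groups (chosen after seeing the data), and no longer passed (adjusted p = 0.0741, 0.109, 0.0527 and 0.372). It was lost in 15 of 23 fits without one library, between -0.20 and -0.13 (adjusted p = 0.00915 to 0.116). Without the Mx groups the F test of Bcl11b at E10.5 gave adjusted p = 0.0598. With no filter, Bcl11a was at -0.33 for Mx minus Md at E10.5 (adjusted p = 0.0561) and 0.23 for Control minus wild type (adjusted p = 0.0968). With one library left out these ran from -0.37 to -0.32 and from 0.23 to 0.28. For all of these the cause was not tested.

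Bcl11b newly passed for Mx minus Md at E10.5 (0.39 with only the groups compared, adjusted p = 0.00189; 0.38 in DESeq2, adjusted p = 0.0158) and for Ezh2cKO in Mx (-0.33 and -0.34, adjusted p = 0.023 and 0.031) and PA2 (-0.25 with only the groups compared, adjusted p = 0.0316). Differences near 0 changed sign: Bcl11a in Ezh2cKO averaged over subpopulations was 0.01 with RLE (0.0131) and in DESeq2 (0.0131), 0.0232 with no filter and 0.0264 with only the groups compared, where Ezh2cKO Md was 0.00688. Without one library, the ranges that cross 0 were -0.0299 to 0.0252 for Bcl11a averaged over Ezh2cKO, -0.00697 to 0.0377 for it in FNP, -0.13 to 0.0619 in Md, -0.00405 to 0.27 for Bcl11b in Ezh2cKO FNP, and -0.0527 to 0.0122 and -0.022 to 0.0892 for Bcl11a and Bcl11b in PA2 minus Md at E10.5.

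Counts of called genes with only the groups compared were 1746 against 960 for PA2 minus Md at E10.5, 3026 against 1885 for Ezh2cKO PA2, 546 against 335 for the Ezh2cKO effect by subpopulation (516 in DESeq2), 6400 against 11277 for HoxA2OE and 247 against 128 for Hoxa2TempMut. Without one library they ran from 880 to 1163 for Mx minus Md at E10.5 (main 1359), 722 to 2029 for Ezh2cKO Mx (2111), 1204 to 1580 for Ezh2cKO Md (1823), 1229 to 1719 for Ezh2cKO PA2, 3207 to 5353 for FNP at E11.5 (5058, lowest without the third FNP library) and 75 to 130 for Hoxa2TempMut. A replicate block changed none of 69 calls or counts; with it the Bcl11b change in FNP between stages was 1.65. Same-numbered libraries correlated best with their own number in 27 of 64 cases. On plain library totals 16 of 32 group means of the members moved by more than 1 SD. Ranked by Spearman's rho, 0 and 1 of the 5 genes most like Bcl11a and 0 and 2 of those most like Bcl11b, over 16 and 15 groups, were the same. Depth limits only the E8.5 values.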
